A study of Homo sapiens with 4 samples.

Results

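The genes described here encode the coats and adaptors of transport vesicles. They were listed by name and comprise 49 genes: 9 of COPI, 10 of COPII, 4 cargo receptors of the early secretory pathway, clathrin with PICALM (4), the adaptor complexes AP-1 (4), AP-2 (5), AP-3 (3) and AP-4 (4), the 3 GGA adaptors, and ASAP1, ARFGAP3 and PACSIN2, which act on Arf GTPases or on membrane curvature. All 49 were found among the 62778 entries of the gene table that name a gene, in 48 entries, because ARFGAP3 and PACSIN2 were counted together as one. Of these entries, 47 passed the filter on low counts, which 26167 entries of the table passed in all. The entry that did not pass was COPZ2.

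RNA was sequenced from K562 cells, an established human erythroleukemia line from bone marrow, which overexpressed U2AF1_S34F, a splicing factor with the S34F mutation found in myeloid neoplasms. Every library carried this genotype, so no library shows the cells without it. One group received SF1-8, an inhibitor of the U2AF homology motif of U2AF1, at 30 µM for 48 h, and the control group received DMSO, with 2 libraries each. The titles of the control libraries give no time. The labels do not say whether the 2 libraries of a group came from separate cultures, so p-values measure the spread between these libraries, which may be technical.

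The estimated counts summed to between 45522905 (DMSO 1) and 67554610 (SF1-8 1) per library. The U2AF1 entry, which does not separate the mutant from the endogenous copy, stood at 11.4 and 11.5 FPKM in the controls and 11.9 and 12.02 after SF1-8. Of the 9 erythroid markers of K562 cells, held in 8 entries of which some name further genes, none passed an unadjusted p of 0.05, and their summed FPKM lay between 260.3 and 286 in the 4 libraries. The 8 fibroblast or stromal markers were low but unequal, summing to 10.2 and 5.01 FPKM under DMSO and to 2.57 and 0.594 under SF1-8. Of these, 7 had a lower fitted value with SF1-8, 5 at an unadjusted p under 0.05, and LUM was at 0 in both SF1-8 libraries. In the endothelial list CDH5, VWF and KDR were at 0 in every library, the lymphocyte list summed to between 4.35 and 5.83 FPKM and the monocyte or macrophage list to between 30.4 and 41.98. Most of the last sum came from the entry of CD68, which also names EIF4A1, SENP3 and other genes, and the list without it summed to between 4.60 and 6.02. In bulk RNA, fewer cells of a type and less RNA per cell cannot be told apart. The part of these markers in the results below was not tested.

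Vesicles form when a coat assembles on a membrane, gathers cargo and bends the membrane into a bud. COPII buds vesicles from the endoplasmic reticulum, COPI carries material back from the Golgi and between its cisternae, and clathrin, which does not touch the membrane itself, is linked to it by adaptors that differ by place. AP-1 and the GGAs act at the trans-Golgi network and endosomes, AP-2 at the plasma membrane in endocytosis, AP-3 on the way to lysosomes, and AP-4 leaves the trans-Golgi network without clathrin.

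At the level of whole gene entries, the coat genes differed little between SF1-8 and DMSO. Such values do not separate the transcripts of a gene, so a switch between transcripts was not tested. The paper reports changed transcript patterns after treatment for the members PICALM, ASAP1, PACSIN2, ERGIC3, COPB2 and AP4E1. At an adjusted p under 0.05 none of the 47 tested entries passed, against 11 of all 26167 (0.0420%), where the test was the quasi-likelihood test of edgeR and p-values were adjusted over all entries by the Benjamini-Hochberg method. The lowest adjusted p among the members was 0.970, and DESeq2 and limma also called none of them. At an unadjusted p under 0.05 the members AP4M1 and GGA3 passed, 4.26% of those tested, where 4.33% of all entries did. Both were higher with SF1-8, as were 1.78% of all entries at that threshold. With a library left out, the log2 fold change was 0.26 to 0.53 for AP4M1 and 0.19 to 0.41 for GGA3. At the same threshold DESeq2 gave AP4M1 and GGA3 as well, and 1159 of all 26167 entries. By limma on log2(FPKM + 1) it was 0 of 47 members and 1077 of 19775 entries.

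The changes were small and, for most members, tightly bounded. Here FPKM, fragments per kilobase scaled to the mapped fragments of the library, gives the level of a gene per length, and log2 fold changes are SF1-8 minus DMSO, fitted to the counts. For 42 of the 47 tested entries the log2 fold change was within 0.2 of 0. For 42 the 95% interval lay inside a 1.5-fold change in either direction, whereas 30.7% of all entries tested had such an interval. The exceptions to the second count were COPZ1, ARCN1, SAR1A, AP4M1 and GGA3. For COPZ1 and SAR1A the interval reached past a 2-fold change. Members were expressed well above the typical entry, with a median FPKM of 11.5 against 1.13 over all entries tested, and a mean of at least 10 FPKM in 29 of 47. The share of 30.7% was not computed at similar FPKM.

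More members had a fitted value above 0 than below it. There were 37 higher and 10 lower, so that 21.3% were lower, compared with 51.6% of all entries tested and 45.3% of the 14086 entries with a mean FPKM of 1 or more, a limit chosen after the values were seen. The median log2 fold change of the members was 0.044, compared with -0.011 over all entries tested and 0.018 over those of FPKM 1 or more. The split depended on the values used: on log2(FPKM + 1) with limma it was 17 lower of 47 (55.5% of all entries in that fit), and after quantile normalization 19 of 47 (48.1% of all entries). Both SF1-8 libraries were above both DMSO libraries in FPKM for 13 members (27.7%), where 14.2% of all entries had that order. They were below for 4 (8.51%), where 20.0% of all entries were. The shares of all entries with either order were not computed at similar FPKM. The remaining 30 members overlapped between the groups.

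**Figure D1:**
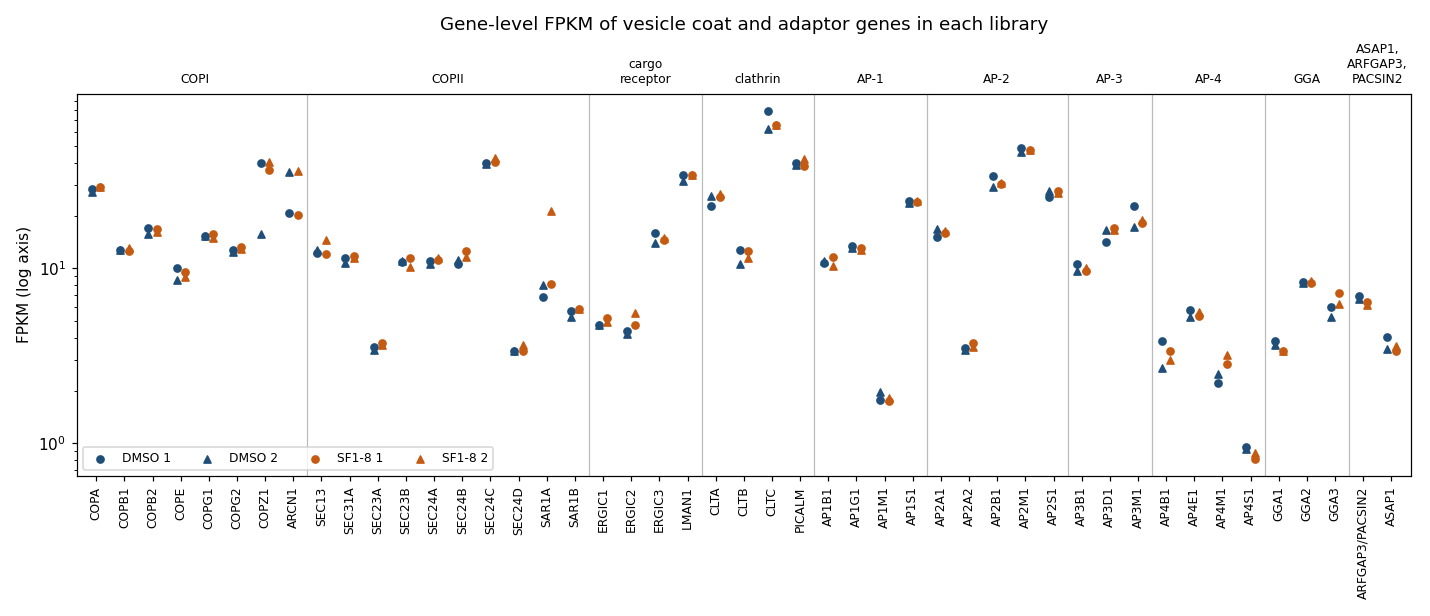
FPKM of each of the 47 tested entries in each library on a log axis, ordered by coat, with DMSO in blue, SF1-8 in orange, circles for replicate 1 and triangles for replicate 2. Levels run from a mean of 0.894 for AP4S1 to 68.3 for CLTC, and the 4 symbols of most genes lie close together, with COPZ1, ARCN1 and SAR1A spread most.

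COPI is a heptamer of which most subunits have a single gene. All 8 tested COPI entries had a fitted value above 0 by edgeR, with a median of 0.035, but COPE and ARCN1 were below 0 by limma on log2(FPKM + 1), COPB1, COPB2 and COPG1 after quantile normalization, and COPB1, COPE, COPG1 and ARCN1 when a single library was left out. The COPI median was 0.0070 by limma and -0.0052 after quantile normalization, and 0.054 to 0.078 with a library left out. COPA, the alpha subunit, had 28.4 and 27.2 FPKM under DMSO and 29.1 and 29.2 under SF1-8. Both SF1-8 values lay above both DMSO values, and the log2 fold change fitted to the counts was 0.094 (SE 0.062, unadjusted p = 0.184 by edgeR). The gamma subunit of COPI is made from 2 genes. COPG2, in an entry that also names TSGA13, had 12.7 and 12.4 FPKM in the controls and 13.3 and 12.9 after SF1-8, without overlap between the groups, and COPG1, 15.4 and 15.2 FPKM in DMSO 1 and 2 and 15.7 and 14.9 in SF1-8 1 and 2, with overlap. COPG1 made up 54.9% ± 0.149 (SD, n = 2) of the FPKM of the pair with DMSO and 53.99% ± 0.421 with SF1-8, without overlap.

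The zeta subunit came almost wholly from COPZ1. COPZ1 had 40.1 and 15.6 FPKM under DMSO and 36.5 and 40.6 under SF1-8. DMSO 2 was low and the other 3 libraries were alike, so the fitted log2 fold change of 0.51 (SE 0.40, 95% interval -0.51 to 1.53) rested on it: without DMSO 2 it was 0.017 and without DMSO 1 it was 1.29. COPZ2, its paralog, had 0.120 and 0.0239 (DMSO) and 0.0362 and 0.00800 (SF1-8) FPKM and at most 0.300% of the summed FPKM of the pair in any library. ARCN1, the delta subunit, was named after its values were seen because its libraries split within both groups. It had 20.6 and 35.4 FPKM in the controls and 20.1 and 35.9 after SF1-8. In each group replicate 1 was thus near 20 and replicate 2 near 35 FPKM, so the split followed the replicate number. The group means, 28.02 ± 10.5 FPKM (SD, n = 2) with DMSO and 27.97 ± 11.1 with SF1-8, differed by less than that spread.

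The other COPI entries kept close to their control level. COPB1, the beta subunit, shares its entry with AC018523 and PSMA1, a proteasome subunit, and had 12.7 and 12.7 FPKM in DMSO 1 and 2 and 12.6 and 13.01 in SF1-8 1 and 2. COPE, the epsilon subunit and the lowest tested gene of COPI, shares its entry with AC002985 and HOMER3 and had 10.1 and 8.63 FPKM under DMSO and 9.56 and 8.96 under SF1-8. Values of such entries cannot be assigned to one of the genes they name. COPB2, the beta-prime subunit, overlapped between the groups, with a log2 fold change of 0.030.

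In COPII, SAR1 GTPase starts the coat, SEC23 and SEC24 form its inner layer, with SEC24 binding cargo, and SEC13 and SEC31 the outer cage. All 10 COPII entries had a fitted value above 0 by edgeR, with a median of 0.10 on the log2 scale, although SEC23B was below 0 in each of 4 limma settings (-0.029 to -0.015), with the counts divided by 4 (-0.00046) and without DMSO 1 or SF1-8 1, and SEC13 without SF1-8 2. Of all entries tested, 51.6% were below 0, and of those with a mean FPKM of 1 or more 45.3%. In 6 of the 10 the groups did not overlap and SF1-8 was the higher (SEC23A, SEC24A, SEC24B, SEC24C, SAR1A and SAR1B), an order that 14.2% of all entries had. The median FPKM of all entries was 1.13 and the COPII means were 3.43 to 40.6. The share with that order was not computed at similar FPKM. None of the 10 passed an unadjusted p of 0.05.

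SAR1A had the largest fitted difference of the members. It had 6.83 and 7.99 FPKM in the controls and 8.14 and 21.4 after SF1-8. The other 3 libraries thus lay between 6.83 and 8.14, and SF1-8 2 stood apart. The log2 fold change was 1.01 (SE 0.44, 95% interval -0.12 to 2.14, unadjusted p = 0.0695), falling to 0.17 without SF1-8 2 and reaching 1.55 without SF1-8 1, where the adjusted p was 0.058, the lowest of any member in any setting. In the other settings its adjusted p was at least 0.65. Its paralog SAR1B had 5.67 and 5.28 FPKM in DMSO 1 and 2 and 5.85 and 5.84 in SF1-8 1 and 2, without overlap, with a log2 fold change of 0.12 (SE 0.076). The entry of SAR1B overlaps that of SEC24A by 487 bases on the opposite strand, and how the authors' counting treated strand is not given in the sources used here.

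Of the 4 SEC24 paralogs, SEC24C was the highest and SEC24D the lowest in every library. SEC24C, also the highest of the COPII members, had 40.1 and 39.3 FPKM under DMSO and 40.4 and 42.6 under SF1-8, and SEC24D had 3.38 and 3.35 FPKM in the controls and 3.36 and 3.63 after SF1-8. SEC24C made up 61.4% ± 0.382 (SD, n = 2) of the summed FPKM of the family with DMSO and 60.7% ± 1.11 with SF1-8. SEC24A and SEC24B lay between them, at 11.04 and 11.5 FPKM over the 4 libraries, and these neighbours did not differ beyond their spread. SEC24B had a log2 fold change of 0.17 (SE 0.10), which was 0.092 without DMSO 1, 0.25 without DMSO 2 and 0.11 without SF1-8 1. SEC31A, in an entry that also names THAP9-AS1, had 11.5 and 10.7 FPKM in DMSO 1 and 2 and 11.7 and 11.4 in SF1-8 1 and 2, with the lower SF1-8 library just under the higher DMSO library. Of the SEC23 pair, SEC23B made up 75.8% ± 0.793 (SD, n = 2) of the FPKM with DMSO and 74.5% ± 1.44 with SF1-8, with overlap. SEC13 had a log2 fold change of 0.12 and overlapped, and it fell to -0.011 without SF1-8 2.

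The cargo receptors that cycle between the endoplasmic reticulum and the Golgi were LMAN1, also called ERGIC-53, which exports glycoproteins such as clotting factors, and ERGIC1, ERGIC2 and ERGIC3. LMAN1, the highest, had 34.2 and 31.4 FPKM under DMSO and 33.998 and 34.1 under SF1-8. ERGIC2, the lowest, had 4.39 and 4.22 FPKM in the controls and 4.76 and 5.54 after SF1-8, with both SF1-8 libraries above both DMSO libraries. Its log2 fold change was 0.28 (SE 0.11, 95% interval -0.0032 to 0.57, unadjusted p = 0.0518), or 0.18 without SF1-8 2. ERGIC1 also lay above without overlap, at 0.12 (SE 0.080). ERGIC3 overlapped between the groups, with 15.8 and 13.9 FPKM under DMSO and 14.5 and 14.9 under SF1-8. Its log2 fold change fitted to the counts was 0.016 (SE 0.078). In the 4 limma settings, on FPKM as the shares below are, it was -0.023 to -0.010. As shares of the summed FPKM of the 3 ERGIC genes, ERGIC2 made up 18.0% ± 0.638 (SD, n = 2) with DMSO and 20.7% ± 1.68 with SF1-8, and ERGIC3 made up 62.1% ± 1.82 and 59.0% ± 0.514, both without overlap. With 2 libraries in each group, an exact two-sided permutation test cannot give a p under 0.33, and these shares are given as a description, with no test.

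**Figure D2:**
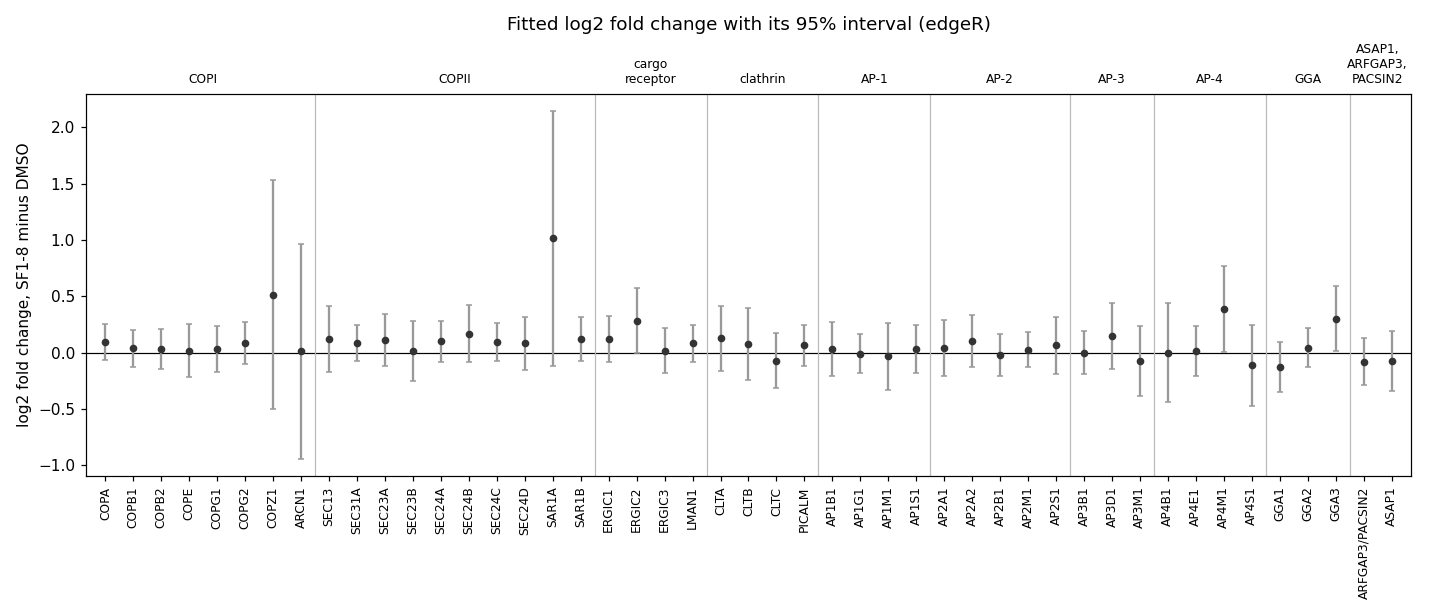
Fitted log2 fold change (SF1-8 minus DMSO, edgeR) of each tested entry on the vertical axis, ordered by coat, with bars for the 95% interval and a line at 0. Most points lie within 0.2 of 0, the bars of COPZ1, ARCN1 and SAR1A are the longest, and those of AP4M1 and GGA3 alone do not reach 0.

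The clathrin genes overlapped between the groups. CLTC, the heavy chain that forms the legs of the triskelion, was the most abundant member, with 78.97 and 62.6 FPKM in DMSO 1 and 2 and 65.8 and 65.8 in SF1-8 1 and 2. DMSO 1 was high and the other 3 libraries were alike, and the log2 fold change was -0.074 (SE 0.10), or 0.059 without DMSO 1. The light chains CLTA and CLTB, which sit along the heavy chain, had 25.2 and 11.8 FPKM over the 4 libraries. CLTB, the lowest of the 4, had 12.8 and 10.5 FPKM under DMSO and 12.6 and 11.4 under SF1-8. CLTA made up 67.5% ± 5.08 (SD, n = 2) of the light-chain FPKM with DMSO and 68.5% ± 2.11 with SF1-8. PICALM, a clathrin assembly protein that binds the lipid of the plasma membrane, had a log2 fold change of 0.064.

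AP-2 is the adaptor of clathrin-mediated endocytosis, with large subunits alpha (AP2A1 or AP2A2) and beta (AP2B1), a medium subunit (AP2M1) and a small one (AP2S1). Its 5 genes had log2 fold changes between -0.020 (AP2B1) and 0.10 (AP2A2), with a median of 0.040, and their summed FPKM was 127 and 123 with DMSO and 125 and 124 with SF1-8. AP2M1, which reads tyrosine-based sorting signals, was the highest, with 48.8 and 45.9 FPKM in the controls and 47.4 and 47.2 after SF1-8. AP2A2, the lowest, had 3.52 and 3.40 FPKM in DMSO 1 and 2 and 3.74 and 3.56 in SF1-8 1 and 2, the only AP-2 gene without overlap (SE 0.090). AP2A1 supplied 82.2% ± 1.47 (SD, n = 2) of the alpha-subunit FPKM with DMSO and 81.6% ± 0.732 with SF1-8.

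AP-1, which sorts cargo between the trans-Golgi network and endosomes, had a median log2 fold change of 0.012 over AP1B1, AP1G1, AP1M1 and AP1S1. AP1S1, its small subunit, was the highest, with 24.4 and 23.7 FPKM under DMSO and 24.1 and 24.2 under SF1-8. AP1M1, its medium subunit, was the lowest, with 1.77 and 1.95 FPKM in the controls and 1.75 and 1.82 after SF1-8. Both overlapped. AP1B1, the beta subunit, in an entry that also names AC002059, SNORD125 and AC000041, had 10.7 and 11.1 FPKM in DMSO 1 and 2 and 11.5 and 10.3 in SF1-8 1 and 2. It is a close relative of AP2B1, and its share of the FPKM of the pair, 25.8% ± 2.40 (SD, n = 2) with DMSO and 26.4% ± 1.61 with SF1-8, overlapped. For AP1G1, the gamma subunit, both SF1-8 libraries were below both DMSO libraries in FPKM. The log2 fold change was -0.0096 (SE 0.067) fitted to the counts and -0.034 by limma on log2(FPKM + 1).

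AP-3 takes membrane proteins to lysosomes and related organelles. AP3M1, its medium subunit, had 22.7 and 17.1 FPKM under DMSO and 18.1 and 18.8 under SF1-8, and DMSO 1 was again the high library. AP3B1, the beta subunit, in an entry that also names AC024568, had 10.5 and 9.66 FPKM in the controls and 9.66 and 10.1 after SF1-8. AP3D1, the delta subunit, had the largest fitted difference of the complex, 0.15 (SE 0.11), and overlapped. Without DMSO 2 it was 0.31. The medium subunit has a second gene, AP3M2, which was not a member but was on the list of further vesicle genes and was set beside AP3M1 after its values were seen. AP3M2 had 1.81 and 1.41 FPKM in DMSO 1 and 2 and 4.18 and 4.42 in SF1-8 1 and 2, and both SF1-8 libraries were above both DMSO libraries. It made up 7.52% ± 0.165 (SD, n = 2) of the medium-subunit FPKM with DMSO and 18.9% ± 0.204 with SF1-8.

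AP-4 was the least abundant adaptor complex, with a summed FPKM of 11.4 to 12.8 over its 4 genes. AP4M1, its medium subunit, which binds cargo at the trans-Golgi network, had 2.21 and 2.50 FPKM under DMSO and 2.85 and 3.21 under SF1-8. The SF1-8 libraries were both above the DMSO libraries. The log2 fold change was 0.39 (SE 0.15, 95% interval 0.0050 to 0.77), a 1.31-fold difference, with an unadjusted p of 0.0480 and an adjusted p of 0.970, the latter from 0.62 to 1.00 over the other settings. With a library left out the log2 fold change was 0.26 to 0.53. Its entry (chr7:100101549-100110345, hg38, plus strand) overlaps on the opposite strand those of TAF6, by 3276 bases, and MCM7, by 392 bases, which have 3778 and 30492.5 mean counts against 1030.5 for AP4M1. Their log2 fold changes were -0.091 and 0.014, and without knowledge of strand in the counting, reads in the overlaps cannot be assigned.

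The other AP-4 genes had fitted values nearer to 0. AP4E1, the epsilon subunit and the highest of the complex, had 5.79 and 5.28 FPKM in the controls and 5.36 and 5.61 after SF1-8. AP4B1, the beta subunit, varied 1.43-fold between the DMSO libraries and had a log2 fold change of 0.00023. AP4S1, the small subunit and the lowest tested member, had 0.951 and 0.924 FPKM in DMSO 1 and 2 and 0.818 and 0.882 in SF1-8 1 and 2, with both SF1-8 libraries below both DMSO libraries and a log2 fold change of -0.11 (SE 0.14). After quantile normalization it was 0.034.

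The GGAs are monomeric adaptors that sort mannose 6-phosphate receptors into clathrin vesicles, and the 3 genes lay on different sides of the DMSO level. GGA3 (chr17:75236599-75262363, hg38, minus strand) had 5.98 and 5.24 FPKM under DMSO and 7.26 and 6.28 under SF1-8, with both SF1-8 libraries above both DMSO libraries. The log2 fold change was 0.30 (SE 0.11, 95% interval 0.015 to 0.59), with an unadjusted p of 0.0425 and an adjusted p of 0.970, the latter from 0.67 to 1.00 over the other settings. It was 0.19 without SF1-8 1 and at most 0.41, without SF1-8 2. Its entry overlaps that of MRPS7, a mitochondrial ribosomal protein gene on the opposite strand, by 690 bases, and MRPS7 had a log2 fold change of 0.071 (SE 0.17).

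GGA1, by contrast, had 3.83 and 3.65 FPKM in the controls and 3.35 and 3.35 after SF1-8, with both SF1-8 libraries below both DMSO libraries and a log2 fold change of -0.13 (SE 0.088, unadjusted p = 0.196). GGA2, in an entry that also names EARS2, had 8.33 and 8.26 FPKM in DMSO 1 and 2 and 8.28 and 8.51 in SF1-8 1 and 2, with overlap. In shares of the summed FPKM of the family, GGA1 went from 21.2% ± 0.109 (SD, n = 2) with DMSO to 18.1% ± 0.531 with SF1-8, and GGA3 from 31.8% ± 1.68 to 36.5% ± 2.70, each without overlap, while GGA2 overlapped at 47.0% ± 1.57 and 45.4% ± 2.17.

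**Figure D3:**
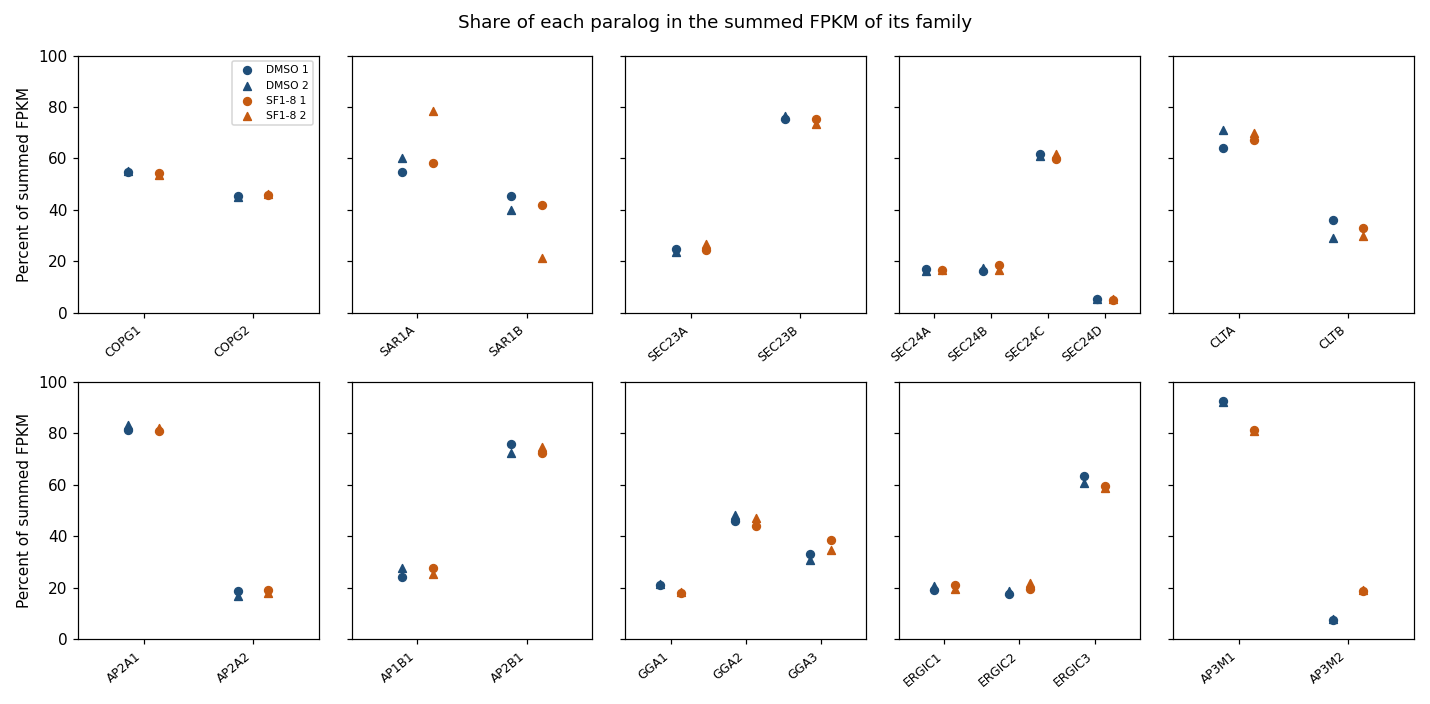
Share of each paralog in the summed FPKM of its family, in percent on an axis from 0 to 100, for 10 families (COPZ1 and COPZ2 not drawn), with symbols for the 4 libraries as in the plot of levels. GGA1, ERGIC3 and COPG1 sit lower and GGA3, ERGIC2 and COPG2 higher in both SF1-8 libraries, AP3M2 goes from 7.52% to 18.9%, and SAR1A shows 1 high SF1-8 library at 78.5%. The shares of a family add up to 100, so a higher share of 1 gene lowers those of the others.

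ASAP1 and ARFGAP3 switch off Arf GTPases, which recruit COPI, AP-1 and the GGAs, and PACSIN2 is a curvature-sensing F-BAR protein of endocytosis and caveolae. The single entry of ARFGAP3 and PACSIN2, neighbours on chromosome 22, had 6.94 and 6.67 FPKM under DMSO and 6.42 and 6.19 under SF1-8. Both SF1-8 libraries were below both DMSO libraries in FPKM. The log2 fold change fitted to the counts was -0.082 (SE 0.081), and which of the genes this belongs to cannot be told. ASAP1 had 4.04 and 3.45 FPKM in the controls and 3.37 and 3.58 after SF1-8, which overlapped.

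Most members varied little between libraries of a group, yet their fitted differences were also small. The higher library was 1.07 times the lower at the median member with DMSO and 1.04 times with SF1-8, where entries with an FPKM of 1 or more had medians of 1.13 and 1.10. Only COPZ1 (2.56-fold) and ARCN1 (1.72-fold) exceeded 1.5-fold between the DMSO libraries, and only SAR1A (2.63-fold) and ARCN1 (1.78-fold) between the SF1-8 libraries. Among the entries of FPKM 1 or more, 15.7% and 12.8% exceeded 1.5-fold. When a library was left out, the log2 fold change of 20 of the 47 members changed sign in at least 1 case. For 16 others the log2 fold change itself, not the expression level, moved by a factor of more than 1.5.

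**Figure D4:**
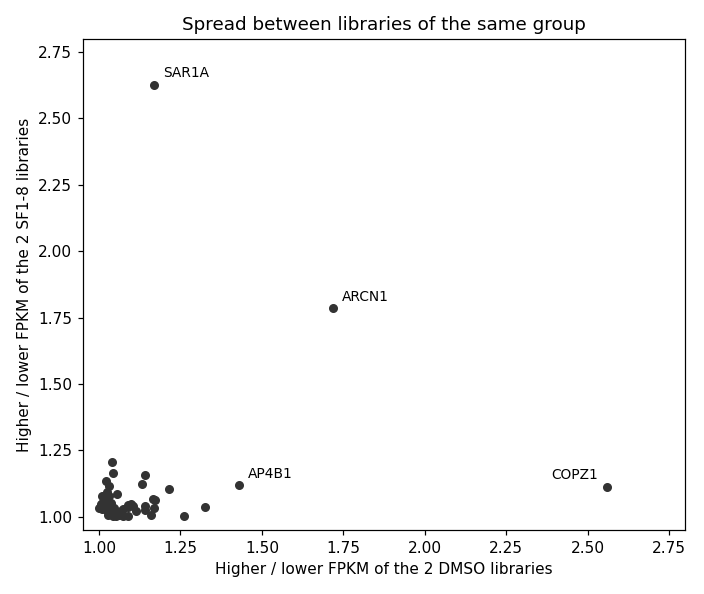
Ratio of the higher to the lower FPKM between the 2 DMSO libraries (horizontal) and between the 2 SF1-8 libraries (vertical) for each tested entry, on linear axes. COPZ1 lies far out on the DMSO axis at 2.56, SAR1A on the SF1-8 axis at 2.63, and ARCN1 on both, while AP4B1 at 1.43 heads the rest.

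The upstream sequence of the members was searched for elements by which secretory and lysosomal genes are known to respond to stress or to cAMP, in the 250 bases before each start in RefSeq (GRCh38.p14), on both strands. Of the 49 members, 42 had such a sequence. The endoplasmic reticulum stress response element, CCAAT and CCACG 9 bases apart, was in none of the 42 and in 0.0740% of 35116 promoters, and its second form, ATTGG and CCACG 1 base apart, was in none and in 0.0513%. The cAMP response element TGACGTCA was in AP2B1 and CLTB and in 1.65% of all promoters, and the CLEAR core TCACGTGA, bound by lysosomal regulators of the TFEB family, was in PICALM and in 0.854%. The matches are shown because they are the only ones among the members, with the element in capitals and 10 bases on each side.
CLTB, chr5:176416573-176416600, minus strand: gcccccgcggTGACGTCAccgcattccg
AP2B1, chr17:35587226-35587253, plus strand: cgcaccccgaTGACGTCAcgcggcgacg
AP2B1, chr17:35587249-35587276, plus strand: cgacgttctcTGACGTCAgagtttcctg
PICALM, chr11:86069300-86069327, minus strand: gcagggagagTCACGTGAtgcgccggct
PICALM, chr11:86069116-86069143, minus strand: ggtgtccgagTCACGTGAcccggggcag
None of these 3 genes differed between the groups at an unadjusted p under 0.05, with log2 fold changes of 0.075 for CLTB, -0.020 for AP2B1 and 0.064 for PICALM. A match of letters is no measure of binding.

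Of 82 further vesicle genes (other adaptor subunits, Arf GTPases and their exchange factors, COPII assembly factors, p24 proteins and other cargo receptors, endocytic accessory proteins, dynamins and uncoating factors), 80 were tested and none passed an adjusted p of 0.05 by edgeR. DESeq2 called 2 of them (AP3M2 and STON2), where it called 163 of all 26167 entries. At an unadjusted p under 0.05, 4 of the 80 passed by edgeR (5.0%, against 4.33% of all entries), 2 higher (AP3M2 and STON2) and 2 lower (SURF4 and AP5Z1). There were 51 higher and 29 lower (36.3%, against 51.6% of all entries and 45.3% of those with a mean FPKM of 1 or more). Their median log2 fold change was 0.029, against -0.011 and 0.018.

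AP3M2 had a log2 fold change of 1.44 (SE 0.14) and an adjusted p of 0.121 by edgeR. It passed with DESeq2 (adjusted p = 9.0e-13) and without the filter on low counts (0.021), and the adjusted p ranged up to 0.82 over the settings. STON2, an endocytic adaptor for synaptotagmin, had 8.43 and 7.24 FPKM in DMSO 1 and 2 and 10.7 and 12.8 in SF1-8 1 and 2, with a log2 fold change of 0.61 (SE 0.11) and an adjusted p of 0.637, or from 0.0090 with DESeq2 to 0.94. SURF4, a cargo receptor that loads soluble secretory proteins into COPII vesicles, had 68.1 and 57.4 FPKM under DMSO and 44.6 and 45.9 under SF1-8, a log2 fold change of -0.44 (SE 0.082, adjusted p = 0.654, from 0.057 to 0.94 over the settings). AP5Z1, a subunit of the late-endosomal AP-5 complex, had 3.93 and 4.12 FPKM in the controls and 2.75 and 3.01 after SF1-8 and a log2 fold change of -0.46 (SE 0.11, adjusted p = 0.970, from 0.21 to 1.00). In all 4 genes the groups did not overlap, an order that 14.2% (above) and 20.0% (below) of all entries tested had. The 4 were picked by p from these same libraries, so the order adds no separate support.

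Additional entries that name a member but hold none of its exons in GENCODE version 29 lie in or beside 5 member loci. They were not summed with the members, and exons of other genes were not checked. The one with the smallest p, within GGA2 (chr16:23511746-23517232, hg38), had 1.37 and 1.39 FPKM with DMSO and 1.95 and 1.55 with SF1-8 (log2 fold change 0.37, SE 0.18, unadjusted p = 0.0911 by edgeR). On the opposite strand from SEC31A, a pair of entries had log2 fold changes of 0.0072 and -0.0087.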

How the data were processed

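RNA-seq libraries of K562-U2AF1_S34F cells, 2 given DMSO and 2 given SF1-8, were grouped and numbered by their labels. The authors deposited FPKM values, normalized for gene length and library depth with 0.0001 in place of 0, and the deposited estimated counts are whole numbers without normalization, with 4 the commonest value above 0, so they are not single reads and no counting error was computed. Per the labels, reads were processed with cutadapt, FastQC, Bowtie2, HISAT2 and StringTie on hg38; their parameters are not given in the sources used here. No column of the authors' own comparisons was used.

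Each gene was taken from the entry naming it with the highest mean count. Entries without a gene name (0.358% to 0.421% of counts) were left out. The counts were tested with edgeR 4.0.16 in R 4.3.3 (TMM factors, 0.973 to 1.05; filterByExpr, minimum count 10; quasi-likelihood test), with Benjamini-Hochberg adjustment over 26167 entries, and the steps were tested on simulated data. Alternatives were DESeq2 1.42.0, its size factors, no filter, a replicate block, limma 3.58.1 on log2(FPKM + 1) or log2(FPKM + 0.1) (FPKM of at least 0.5 in 2 libraries, no filter, or quantile normalization), leaving out each library, and, chosen after the counts were seen, counts divided by 4. Members and lists were chosen with earlier results of these data known. Values in every library are given for members at an unadjusted p under 0.05, members without overlap and a log2 fold change of at least 0.25 in size, the highest and lowest member of each coat and members in shared entries, and for at most 5 of the further vesicle genes. Upstream sequences are from RefSeq.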

Additional observations from a re-analysis of the deposited data

How the results depend on the processing

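Of 51 fold changes of single genes, recomputed in 13 settings, 27 kept their direction in each and 24 changed it in at least 1. Among 663 values, 591 kept direction and side of the threshold, 69 reversed and 3 became significant (AP3M2 with DESeq2 and without the filter, and STON2 with DESeq2). No member passed an adjusted p of 0.05 in any setting. The cause of the reversals was not tested.

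All genes at an adjusted p under 0.05 numbered 11, against 163 with DESeq2, 31 without the filter, 1 by limma on log2(FPKM + 1), and 0 with the replicate block and in the other 3 limma settings, and 0 to 30 with a library left out. At an unadjusted p under 0.05 they numbered 1132, against 1753 by limma without filter and 1021 to 2267 with a library left out. Members at an unadjusted p under 0.05 numbered 2, against 4 without the filter (SAR1A and ERGIC2 added), 0 with counts divided by 4 and in all 4 limma settings, and 1 to 5 with a library left out. Further vesicle genes at that threshold numbered 4, against 4 to 8 with a library left out. Members with a value under 0 numbered 10, against 17 by limma with either pseudocount, 18 of 48 without its filter and 19 with quantile normalization.

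The main fit did not pair the libraries by replicate number. The differences between replicates 1 and 2 correlated at r = 0.019 between the groups over 26167 genes. This cannot show whether libraries of the same number shared a batch. ARCN1 was lower in replicate 1 in both groups, and so was ARF1 of the further vesicle genes. How many other entries had that order was not counted. With the replicate block, members at an unadjusted p under 0.05 numbered 3 (SAR1A added).

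The COPII median of 0.10 was 0.092 with counts divided by 4, 0.066 by limma on log2(FPKM + 1) with or without filter, 0.077 on log2(FPKM + 0.1) and 0.062 with quantile normalization, and 0.091 to 0.12 with a library left out. Leaving out a library gave medians of -0.028 to 0.074 for AP-1, 0.029 to 0.12 for AP-2 and -0.049 to 0.14 for AP-4.

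Reversed values on log2(FPKM + 1), with or without filter, were COPE (-0.0083), ARCN1 (-0.0093), SEC23B (-0.015), ERGIC3 (-0.010), AP2M1 (-0.0015), AP4B1 (-0.015) and AP4E1 (-0.011). On log2(FPKM + 0.1) they were COPE (-0.0088), ARCN1 (-0.0098), SEC23B (-0.016), ERGIC3 (-0.010), AP2M1 (-0.0015), AP4B1 (-0.015) and AP4E1 (-0.013). With quantile normalization they were COPB1 (-0.0016), COPB2 (-0.0088), COPE (-0.012), COPG1 (-0.013), ARCN1 (-0.027), SEC23B (-0.029), ERGIC3 (-0.023), AP1B1 (-0.0092), AP1M1 (0.014), AP1S1 (-0.012), AP2M1 (-0.019), AP4E1 (-0.0064) and AP4S1 (0.034). With counts divided by 4 they were ARCN1 (-6.7e-05), SEC23B (-0.00046) and AP4B1 (-0.011). AP3B1 was 0.0012 with DESeq2 size factors, 0.0013 with DESeq2 and 0.0059 without the filter. With a library left out, the values of the genes that changed direction ranged thus: AP1B1 (-0.050 to 0.12), AP1G1 (-0.029 to 0.015), AP1M1 (-0.14 to 0.088), AP2A1 (-0.073 to 0.17), AP2B1 (-0.080 to 0.048), AP2S1 (-0.025 to 0.16), AP3B1 (-0.023 to 0.027), AP3M1 (-0.22 to 0.10), AP4B1 (-0.20 to 0.23), AP4E1 (-0.0083 to 0.046), ARCN1 (-0.45 to 0.51), CLTA (-0.00040 to 0.28), CLTB (-0.018 to 0.18), CLTC (-0.19 to 0.059), COPB1 (-0.0027 to 0.084), COPE (-0.046 to 0.089), COPG1 (-0.0095 to 0.081), ERGIC3 (-0.034 to 0.072), SEC13 (-0.011 to 0.24) and SEC23B (-0.082 to 0.11).

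A single library decided the values of SAR1A and COPZ1, ARCN1 moved with whichever library was left out, and because a count is not a single read, the counting error behind any level is not known. A lone library was assumed to vary like the other group.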
